A study of Rattus norvegicus with 30 samples.

Results

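The 10 genes described here make, recycle or spend glutathione and related thiols, or are induced together with them through the transcription factor NRF2. They were chosen by symbol and are Gclc, Gclm, Gss, Slc7a11, Gsr, Gpx2, Txnrd1, Srxn1, Nqo1 and Hmox1. The array carried 13 probes for these 10 genes, of 30367 probes in all, which stand for 27533 genes or unnamed transcripts. The scanner software marks whether a spot is well above background. Of the 10 genes, 8 were so marked on all 30 arrays, Gclm on some arrays, and Slc7a11 on 0 of 30 with either of its 2 probes.

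Glutathione is a tripeptide that liver cells build in 2 steps. Glutamate-cysteine ligase, made of the catalytic subunit Gclc and the modifier subunit Gclm, joins glutamate to cysteine, and glutathione synthetase, Gss, adds glycine. Slc7a11 is the cystine carrier of the plasma membrane. Glutathione reductase, Gsr, returns oxidised glutathione to its reduced form at the cost of NADPH, and glutathione peroxidase Gpx2, best known from the gut epithelium, spends glutathione to remove peroxides. Thioredoxin reductase Txnrd1 and sulfiredoxin Srxn1 keep the thioredoxin and peroxiredoxin system reduced. Nqo1 reduces quinones, and heme oxygenase Hmox1 breaks heme down and is also abundant in liver macrophages. NRF2, encoded by Nfe2l2, is held back by Keap1 and, once released, binds the antioxidant response element in the DNA of its target genes together with a small Maf protein.

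Livers of male animals on 30 arrays came from 3 models, each on 2 diets. Chimeric mice, whose livers carried transplanted rat hepatocytes, gave 7 arrays on a diet with 1000 ppm PB and 7 on a diet without it. CAR KO rats gave 4 and 4, and SD rats, of the outbred stock Crl:CD(SD), gave 4 and 4. Feeding lasted 7 days, and PB stands for phenobarbital. CAR, the constitutive androstane receptor, is the product of Nr1i3, and through it PB raises many drug-metabolising enzymes. The labels give neither the ages of the animals, nor the host strain of the chimeric mice, nor the allele of the knockout. The stromal cells and blood of a chimeric liver are those of the mouse host, so a rat array reads the rat hepatocytes plus whatever mouse RNA binds its probes.

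The antioxidant response element has the core TGACNNNGC, and the related core TGAGNNNGC is also found in it. Windows of 300 bases, from 250 before to 50 after the start site in RefSeq on build GRCr8, were at hand for 8 of the 10 genes, with 2 start sites for Txnrd1. Either core, searched on both strands, stood in 4 of the 9 windows, those of 4 of these 8 genes, against 27.1% of the 33469 rat promoter windows. The 4 windows that held a core are shown, those of Srxn1, Gpx2, Txnrd1 and Gclm. A link between the cores and the PB responses was not tested. Capitals mark the cores, and the 3 in Srxn1 are of the second kind while the others are of the first. The windows lie at chr3:161064562-161064861 on the plus strand for Srxn1, chr6:101229984-101230283 on the minus strand for Gpx2, chr7:22755855-22756154 on the minus strand for the second start site of Txnrd1, and chr2:213031885-213032184 on the plus strand for Gclm.
Srxn1: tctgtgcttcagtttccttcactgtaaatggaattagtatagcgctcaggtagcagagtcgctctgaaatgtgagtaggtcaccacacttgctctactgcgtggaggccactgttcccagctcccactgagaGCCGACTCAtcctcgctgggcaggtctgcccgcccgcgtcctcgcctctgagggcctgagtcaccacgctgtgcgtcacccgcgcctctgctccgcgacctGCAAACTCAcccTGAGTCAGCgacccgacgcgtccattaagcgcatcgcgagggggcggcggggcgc
Gpx2: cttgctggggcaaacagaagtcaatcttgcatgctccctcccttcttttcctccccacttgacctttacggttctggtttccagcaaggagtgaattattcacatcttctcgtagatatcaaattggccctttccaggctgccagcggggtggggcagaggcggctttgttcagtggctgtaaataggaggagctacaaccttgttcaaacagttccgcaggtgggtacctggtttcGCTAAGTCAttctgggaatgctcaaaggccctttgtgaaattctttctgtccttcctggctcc
Txnrd1: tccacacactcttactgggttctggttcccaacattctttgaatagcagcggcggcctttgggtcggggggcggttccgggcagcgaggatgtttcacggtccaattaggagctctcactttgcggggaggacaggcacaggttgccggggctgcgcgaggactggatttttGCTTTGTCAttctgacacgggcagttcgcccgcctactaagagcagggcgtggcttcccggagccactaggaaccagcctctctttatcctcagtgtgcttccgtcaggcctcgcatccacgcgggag
Gclm: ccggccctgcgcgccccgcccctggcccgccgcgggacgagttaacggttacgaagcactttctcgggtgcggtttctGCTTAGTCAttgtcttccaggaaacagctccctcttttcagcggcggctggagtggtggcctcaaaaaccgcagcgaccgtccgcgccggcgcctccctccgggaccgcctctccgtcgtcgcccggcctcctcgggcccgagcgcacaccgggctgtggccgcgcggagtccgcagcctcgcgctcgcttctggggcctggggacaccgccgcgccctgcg
The first base of the core lay 13 bases before the start site in Gpx2, 78 before in Txnrd1 and 172 before in Gclm, read on the strand of the gene. In Srxn1 the cores began 118, 17 and 5 bases before it. The windows of Gclc, Gss, Nqo1 and Slc7a11 held neither core, which says only that these letters are not within those 300 bases. Among all rat windows the cores are common, found in 12.1% for TGACNNNGC and in 17.2% for TGAGNNNGC.

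Levels are given as log2 processed signal relative to the 75th percentile of the array, so 0 is the signal below which 3 in 4 probes of that array lie, and a level compares arrays but not probes. Between 48.9% and 65.2% of probes were well above background on an array. Albumin, the main product of hepatocytes, averaged 8.33 to 8.68 in all 6 groups. The Nr1i3 probe averaged 1.12 ± 0.30 in CAR KO and 1.17 ± 0.49 in SD rats on control diet, and 0.62 ± 0.62 and 0.55 ± 0.36 on PB (SD, n = 4 each), and it was not lower in the rats labelled CAR KO. The labels do not say where the deletion lies, so this probe does not check them. Cyp2b2, the classic CAR target, changed by -0.09 ± 0.14 with PB in CAR KO rats, against 4.03 ± 0.14 in SD rats and 5.81 ± 0.26 in chimeric mice (log2 fold change ± SE). SD and CAR KO rats were each on 1 slide of their own, with PB and control diet in separate slide rows, so model and slide, and diet and row, cannot be told apart in rats. In chimeric mice, PB 1 shared a slide with all 7 controls and PB 2 to 7 filled another. Chimeric and rat arrays shared no slide, so model and slide cannot be told apart between chimeric and SD livers either. Chimeric control 2, control 4 and PB 4 stood apart from the rest, at -38.2, -44.2 and -55.6 on the second principal component, where the lowest of the other 11 was -8.69. The first component held 51.3% of the variance and the second 26.6%. On the first, the controls lay at -48.3 to -28.8, PB 2 to 7 at 32.7 to 57.0 and PB 1 at -4.71.

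**Figure D1:**
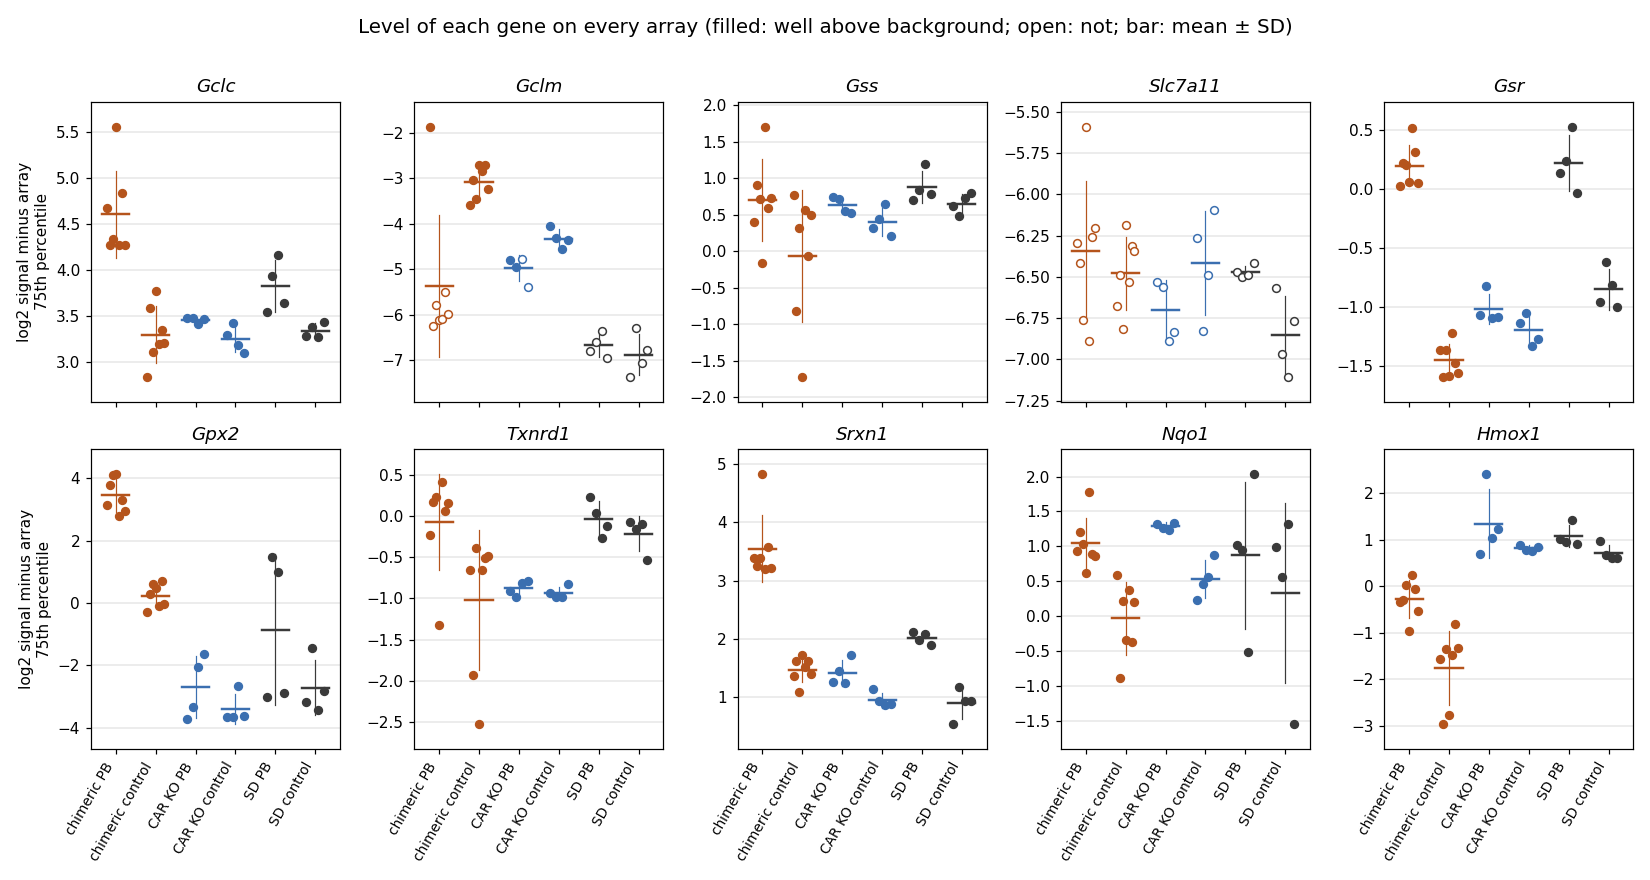
Levels (log2 signal minus the array's 75th percentile) of the 10 genes on every array, in 6 groups, with a bar for the mean and a line for ± SD. Gsr and Srxn1 were higher on PB in chimeric mice and SD rats with no overlap with their controls, Gpx2 split the SD rats on PB into 2 high and 2 low arrays, and Slc7a11 was never well above background (open points).

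Whether PB raises these genes in an intact rat was read from the SD rats. Gsr and Srxn1 rose about as much, each to over double, and Gclc by less, while no gene fell. Of 8 genes tested, 3 rose, where 2.51% of the 16793 genes tested rose and 4.28% changed in either direction. The 8 log2 fold changes were all above 0, with a median of 0.51, against -0.02 for all genes tested. In whole liver, fewer cells of a type and less RNA per cell cannot be told apart.

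Gsr, the reductase that regenerates glutathione, was at 0.14, 0.24, 0.53 and -0.03 in SD rats on PB, against -0.95, -0.61, -0.81 and -1.001 in SD controls. Its log2 fold change was 1.06 ± 0.12 (SE, n = 4 each, adjusted p = 0.000144), a 2.09-fold rise. Srxn1, which repairs over-oxidised peroxiredoxins, was at 2.12, 1.97, 2.09 and 1.90 on PB, against 0.53, 1.17, 0.93 and 0.93 in controls, a 2.19-fold rise (log2 1.13 ± 0.13, adjusted p = 0.000198). Every PB array lay above every control for both genes. Gclc, the catalytic subunit, was at 3.55, 3.93, 4.16 and 3.64 on PB, against 3.28, 3.38, 3.27 and 3.43 in controls. Its rise of 0.48 ± 0.11 passed the test (adjusted p = 0.0282) but no longer did without SD control 1 or 3 or SD PB 2 or 3 (adjusted p 0.0621 to 0.0751), nor with the 2 SD groups alone in the fit (adjusted p = 0.133) or all 30 arrays in it (adjusted p = 0.527). These 3 were also the genes whose SD groups did not overlap, where 5.88% of all genes tested had every PB array above every control and 5.7% every one below.

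The other genes did not pass the test in SD rats. Gpx2 read 1.48 and 0.98 on SD PB 2 and 3 but -3.02 and -2.88 on SD PB 1 and 4, against -3.19, -1.45, -3.43 and -2.82 in controls. PB 2 and 3 thus lay far above all controls, and PB 1 and 4 among them. Its mean difference of 1.86 ± 0.91 had an interval of -0.09 to 3.81 (95%, adjusted p = 0.274). The second Gpx2 probe showed the same split, with -0.11 and -0.63 on SD PB 2 and 3 and signals not well above background on PB 1 and 4. Nqo1 was as uneven, at 1.02, 0.94, -0.51 and 2.04 on PB, against 0.99, 0.56, 1.31 and -1.55 in controls. Gss, Txnrd1 and Hmox1 differed by 0.23 ± 0.12, 0.19 ± 0.11 and 0.36 ± 0.26. Gclm was not well above background on any of the 8 SD arrays and was not tested there.

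Whether the rise needs CAR was read from the CAR KO rats. None of the 9 genes tested passed the limma test with PB, and 2 of them, Srxn1 and Gclm, had an unadjusted p under 0.05. Of the 17410 genes tested 0.155% passed, 27 in all (0.0345% higher and 0.121% lower), and 2829 had an unadjusted p under 0.05. The log2 fold changes were above 0 for 8 of the 9 genes, with a median of 0.23, against -0.02 for all genes tested. The smallest adjusted p was that of Srxn1. It was at 1.25, 1.44, 1.24 and 1.72 in CAR KO rats on PB, against 1.13, 0.93, 0.85 and 0.87 in CAR KO controls, so the groups did not overlap, and its log2 fold change was 0.47 ± 0.13 (95% interval 0.19 to 0.75, adjusted p = 0.114). Nqo1 was at 1.33, 1.26, 1.23 and 1.34 on PB, against 0.23, 0.46, 0.56 and 0.88 in controls. These groups did not overlap either, but the spread shared with the uneven SD arrays left 0.76 ± 0.55 (adjusted p = 0.530), and with the CAR KO arrays alone in the fit the adjusted p was 0.0905. Genes with every PB array above every control made up 3.73% of those tested and genes with every one below 7.08%, and Gclm was among those below.

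Gsr was at -1.07, -0.82, -1.09 and -1.08 in CAR KO rats on PB, against -1.13, -1.05, -1.33 and -1.27 in CAR KO controls, a difference of 0.18 ± 0.12. Gclc was at 3.47, 3.47, 3.41 and 3.47 on PB, against 3.29, 3.43, 3.19 and 3.095 in controls, a difference of 0.21 ± 0.11. Gpx2 was at -3.71, -3.34, -2.05 and -1.64 on PB, against -3.67, -3.65, -2.67 and -3.61 in controls, so 2 arrays on PB were above all controls. Hmox1 was at 0.70, 2.42, 1.04 and 1.24 on PB, with PB 2 far above the rest, against 0.76 to 0.89 in controls. Its difference was 0.53 ± 0.27. Gss and Txnrd1 differed by 0.23 ± 0.12 and 0.06 ± 0.11. Gclm was well above background on 2 of 4 CAR KO arrays on PB and on 4 of 4 controls, at -4.79, -4.95, -4.78 and -5.38 against -4.06, -4.32, -4.56 and -4.37, and its difference of -0.65 ± 0.21 did not pass the test (adjusted p = 0.158).

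**Figure D2:**
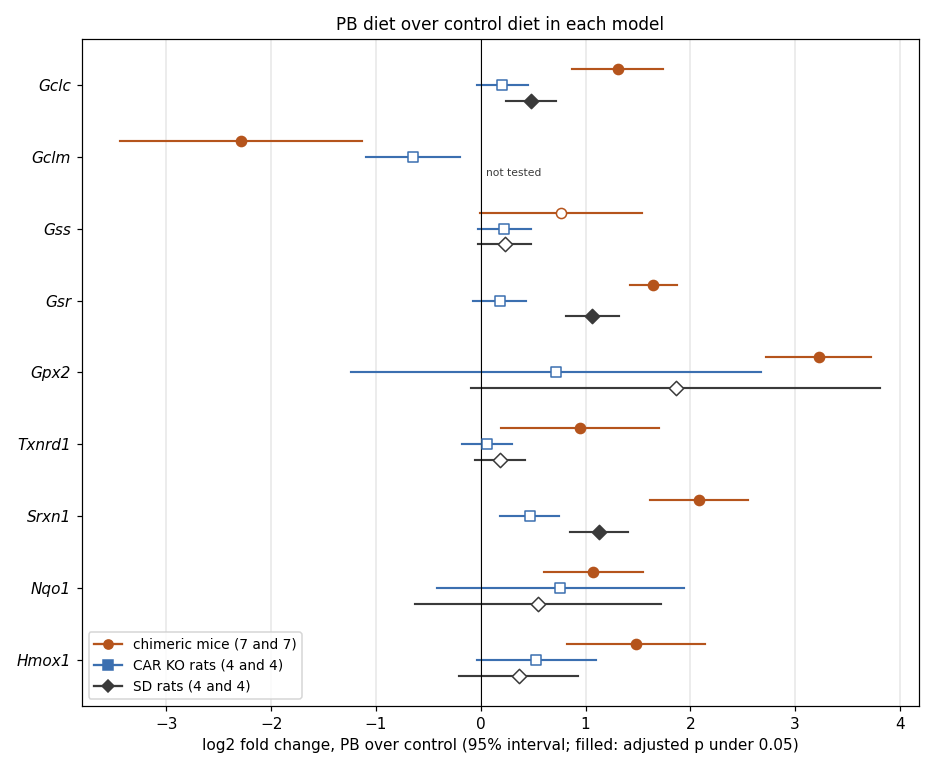
Log2 fold change of PB over control diet for the 9 genes tested, with 95% intervals, in chimeric mice, CAR KO rats and SD rats. Filled points passed the test. Gsr was at 1.65 in chimeric mice, 0.18 in CAR KO rats and 1.06 in SD rats, and the interval of Gpx2 spanned 0 in both rat models. Gclm in chimeric mice was well above background on 1 of 7 PB arrays, so the place of its point is set by background signal.

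Gsr was the gene of the set that passed the test of the difference between the rat responses. Its PB response was lower in CAR KO than in SD rats by 0.88 on the log2 scale (-0.88 ± 0.17, adjusted p = 0.0297), 1 of 9 genes tested, where 0.431% of the 17642 genes tested responded less there and 0.544% differed in either direction. This call was close to the threshold: it was lost without each of 10 of the 16 rat arrays in turn, with adjusted p from 0.0140 to 0.0687 over all 16, and with values from -0.97 to -0.78. It was also lost with arrays centred on their median (-0.82, adjusted p = 0.0565) and with no filter on dim probes (adjusted p = 0.0574). The arrays whose absence ended it were SD control 1, 3 and 4, SD PB 2, CAR KO control 1, 2 and 4, and CAR KO PB 1, 3 and 4. For Srxn1 the difference was -0.66 ± 0.19 (95% interval -1.06 to -0.26, adjusted p = 0.147), for Gclc -0.28 ± 0.16 and for Gpx2 -1.15 ± 1.29. For Txnrd1 it was -0.13 ± 0.16. The fit gave Gclm -0.85 ± 0.29 (adjusted p = 0.238), but with 0 of 8 SD arrays well above background its SD response was not measured. For Gss the difference was -0.002 ± 0.17, and for Nqo1 and Hmox1 0.21 ± 0.78 and 0.17 ± 0.38. A difference of responses as large as that of Gsr lay inside the intervals of Srxn1 (-1.06 to -0.26), Nqo1 (-1.45 to 1.88) and Gpx2 (-3.92 to 1.63).

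In chimeric mice 7 of the 8 genes well above background on every array were higher on PB, although 6 of the 7 PB arrays lay on another slide than the controls. Gpx2 rose most, 9.34-fold, followed by Srxn1 (4.23-fold), Gsr (3.13-fold), Hmox1 (2.79-fold), Gclc (2.48-fold), Nqo1 (2.11-fold) and Txnrd1 (1.93-fold). Of 9 genes tested, 7 rose and 1, Gclm, passed the test as lower, where 19.6% of the 14273 genes tested rose, 23.2% fell and 42.8% changed in all. Of those calls 45.8% were rises, against 71.4% with arrays centred on their median and 35.6% with the 75th percentile over probes detected on all arrays. The median log2 fold change was 1.31, against 0.07 for all genes tested. With the 3 arrays that stand apart left out, 8 genes again passed the test. With slide as a block 2 of the 9 did, Gpx2 and Gsr, and 156 of all genes tested, against 6102.

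Gpx2 was at 2.80, 3.29 and 4.14 (lowest, median and highest of 7) in chimeric mice on PB, against -0.28, 0.30 and 0.69 in chimeric controls. Its log2 fold change was 3.22 ± 0.23 (adjusted p = 2.82e-07), and the second probe gave 3.12 ± 0.22. Srxn1 was at 3.20, 3.39 and 4.83 on PB, against 1.08, 1.51 and 1.72 in controls (2.08 ± 0.22, adjusted p = 1.04e-05). Gsr was at 0.03, 0.21 and 0.52 on PB, against -1.59, -1.47 and -1.22 in controls (1.65 ± 0.10, adjusted p = 6.02e-08). Gclc was at 4.27, 4.34 and 5.56 on PB, against 2.84, 3.20 and 3.77 in controls (1.31 ± 0.20, adjusted p = 0.000161). In these 4 genes and in Nqo1 the groups did not overlap, 5 of 9, where 5.09% of all genes tested had every PB array above every control and 7.73% every one below.

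Nqo1 was at 0.63, 0.93 and 1.77 on PB, against -0.88, 0.20 and 0.59 in chimeric controls (1.08 ± 0.22, adjusted p = 0.0013). Hmox1 was at -0.97, -0.30 and 0.24 on PB, against -2.96, -1.49 and -0.80 in controls (1.48 ± 0.31, adjusted p = 0.00133). Its groups overlapped only in PB 4 and control 6, and its 2 lowest controls were the ones that stand apart. Without the 3 arrays its rise was 1.15. Txnrd1 was at -1.32, 0.16 and 0.42 on PB, against -2.53, -0.65 and -0.39 in controls (0.95 ± 0.35, adjusted p = 0.0409). That call was lost without control 2 or 4, or PB 2, 3, 5, 6 or 7 (adjusted p 0.0683 to 0.0834), while without the 3 arrays that stand apart the rise was 0.67 with an adjusted p of 0.0011. The second Txnrd1 probe gave a smaller rise, 0.44 ± 0.13. Gss was at -0.15, 0.72 and 1.71 on PB, against -1.72, 0.32 and 0.77 in controls, and its difference of 0.77 ± 0.36 did not pass the test (adjusted p = 0.102).

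Gclm on PB was split by slide, with PB 1 alone on the slide of the controls. A slide effect and a deviating PB 1 cannot be told apart. It was at -1.86 on chimeric PB 1 and between -6.24 and -5.49 on PB 2 to 7, where it was not well above background, against -3.59, -3.03 and -2.70 (lowest, median and highest) in the 7 controls. The fit gave -2.29 ± 0.54 (adjusted p = 0.0033), a size that rests on signals not well above background. With those 6 arrays set to the lowest signal well above background on each, their mean was -4.55, at least 2.77-fold under the control mean of -3.08, and the difference over all 7 PB arrays was -1.08. The call rests on the 6 arrays of the other slide, and on the slide that holds both diets the PB array lay above every control. With slide as a block the sign turned, to 1.22 (adjusted p = 0.126). With normexp background correction it was -0.28 (adjusted p = 0.155).

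On that shared slide, chimeric PB 1 lay above all 7 controls for 8 of the 9 genes, Gss being the exception, where 12.5% of all genes tested did and 22.4% lay below all of them. A fit with slide as a block takes the PB response from this 1 array, assumed to vary like the others, and gave log2 differences of 2.90 for Gpx2, 1.92 for Srxn1, 1.47 for Gsr, 1.42 for Hmox1, 1.38 for Gclc, 0.96 for Nqo1, 0.79 for Txnrd1 and 0.46 for Gss. Of these, Gpx2 (adjusted p = 0.00701) and Gsr (adjusted p = 0.00155) passed the test, and Srxn1 had an adjusted p of 0.062. In the chimeric livers, markers of macrophages moved with PB too: 4 of 7 tested fell, among them Cd68 by 1.38 on the log2 scale, and the summed level of the 11 markers, in multiples of the 75th percentile signal, was 26.3 to 46.8 on PB and 41.9 to 56.6 in controls. Neither Marco nor C1qc was well above background in any of the 14 chimeric livers. Of 5 erythroid markers tested 3 rose, with sums of 413 to 795 on PB and 253 to 502 in controls. Of 9 stellate and fibroblast markers 4 fell and 2 rose, both lymphoid markers tested fell, 1 of 3 endothelial markers fell and 1 of 2 biliary markers rose. Of 10 hepatocyte markers 2 fell, Alb by 0.36 and Cps1 by 0.57 on the log2 scale, and 1, Hnf4a, rose by 0.45. The part of these markers in the responses of the 10 genes was not tested.

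Set against SD rats, the PB response of chimeric mice was larger for 3 genes. The difference of responses was 0.95 ± 0.29 for Srxn1 (adjusted p = 0.0223), 0.83 ± 0.27 for Gclc (adjusted p = 0.0293) and 0.58 ± 0.16 for Gsr (adjusted p = 0.00999). Gclm also passed the test as lower (adjusted p = 0.013), but it was well above background on 0 of 8 SD arrays and on 1 of 7 chimeric arrays on PB, so no difference of its responses was measured. These 3 and Gclm were 4 of 9 genes tested, where 6.44% of the 17050 genes tested were higher, 12.6% lower and 19% differed in all. For Gpx2 the difference of 1.36 had an interval of -0.44 to 3.16 that the uneven SD arrays set, and for Hmox1 it was 1.12 ± 0.45 (adjusted p = 0.083). With slide as a block none of the 9 passed the limma test, where 32 of all genes did. The call of Gsr was lost with normexp (adjusted p = 0.0868) and with quantile normalization (adjusted p = 0.0874). The call of Srxn1 was lost without SD control 2 (adjusted p = 0.0542), and that of Gclc without SD control 4 or SD PB 1 or 4.

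On control diet, CAR KO and SD rats differed in 3 of 9 genes. Txnrd1 was lower in CAR KO rats, at -0.93, -0.98, -0.98 and -0.83, against -0.07, -0.16, -0.10 and -0.53 in SD controls (-0.72 ± 0.11, adjusted p = 0.000249), and its second probe gave -0.51 ± 0.12. With all 30 arrays in the fit this call was lost (adjusted p = 0.210), as was that of Gsr (adjusted p = 0.0686). Gsr was lower by 0.35 (-0.35 ± 0.12, adjusted p = 0.0341), a call lost without SD control 2 or 3 or CAR KO control 3 or 4. Gclm was higher, on 4 of 4 CAR KO arrays well above background and on 0 of 4 SD arrays, at least 1.92-fold (adjusted p = 3.83e-07, with group means of -4.33 and -6.88). CAR KO and SD rats were on different slides, so model and slide cannot be told apart. Beside the 3 of 9 genes that differed stand 34.8% of the 17590 genes tested, 14.6% higher and 20.2% lower in CAR KO rats. The count is thus close to that of genes at large. In all 3 genes the groups did not overlap, where 14.5% of all genes tested had every CAR KO array above and 20.1% every one below. Srxn1, Gclc and Hmox1 differed by 0.05 ± 0.13, -0.09 ± 0.11 and 0.10 ± 0.27. Macrophage markers were lower here as well, 4 of 11, as were 3 of 10 hepatocyte markers, 3 of 10 stellate and fibroblast markers with 1 higher, and 2 of 7 lymphoid markers with 1 higher. The part of these differences in the gene results was not tested.

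On PB diet 4 of 8 genes tested were lower in CAR KO than in SD rats and none of the 8 was higher, where 25.6% of the 16410 genes tested were lower, 17.1% higher and 42.7% differed in all. Gclm was not tested, with 2 of 4 CAR KO and 0 of 4 SD arrays well above background. With no filter on dim probes the limma fit gave Gclm 1.70 (adjusted p = 6.08e-05), a size that rests on signals not well above background. Gsr was lower by 1.23 (-1.23 ± 0.12, adjusted p = 2.07e-06), Txnrd1 by 0.84 (-0.84 ± 0.11, adjusted p = 4.35e-05), Srxn1 by 0.61 (-0.61 ± 0.13, adjusted p = 0.0019) and Gclc by 0.37 (-0.37 ± 0.11, adjusted p = 0.0175). With all 30 arrays in the fit, of these 4 only Gsr passed. In all 4 every CAR KO array lay below every SD array, as did 23.3% of all genes tested. The Txnrd1 difference was already there on control diet, and its PB responses were 0.06 in CAR KO and 0.19 in SD rats. The call of Gclc was lost without SD PB 2, and Gpx2, at -1.82 ± 0.91, passed the test without SD PB 1 (adjusted p = 0.0338) or SD PB 4 (adjusted p = 0.0404), the 2 low arrays. Markers of other cells differed in the same comparison. Of 11 macrophage markers 5 were lower (median -0.58), with sums of 53.8 to 86.7 in CAR KO and 94.5 to 113 in SD rats on PB, and 3 of 6 erythroid markers were higher (median 0.93), with sums of 413 to 849 in CAR KO and 279 to 544 in SD rats. Of 10 hepatocyte markers 3 were lower, of 10 stellate and fibroblast markers 2 were lower and 1 higher, and of 7 lymphoid markers 1 was lower. Their part in the gene results was not tested.

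Chimeric and SD livers differed in 7 of 9 genes on control diet, where 75% of the 16977 genes tested did, 39% higher and 36% lower in chimeric livers, so the count is close to that of genes at large. The share of calls that were higher was 52%, against 68.4% with arrays centred on their median and 34.7% with the 75th percentile over probes detected on all arrays. Gpx2 was higher in chimeric controls by 2.96 ± 0.62 (adjusted p = 0.00013), with the lowest chimeric array at -0.28 above the highest SD array at -1.45. Gclm was higher, on 7 of 7 arrays well above background and on 0 of 4 in SD rats, at least 4.56-fold (adjusted p = 1.56e-07, with group means of -3.08 and -6.88). Within the chimeric mice its signal was low on the slide of PB 2 to 7. SD rats were on another slide, so slide and model cannot be told apart. Srxn1 was higher by 0.58 ± 0.21 (adjusted p = 0.0138), a call lost without SD control 1, with quantile normalization (0.38, adjusted p = 0.0609) and with the 75th percentile over probes detected on all arrays (0.20, adjusted p = 0.330). Hmox1 was lower by 2.47 (-2.47 ± 0.32, adjusted p = 1.29e-07), with every chimeric array under every SD array. Gsr was lower by 0.60 (-0.60 ± 0.11, adjusted p = 2.66e-05), also with no overlap. These 4 genes without overlap, 2 above and 2 below, stand beside 33% and 28.5% of all genes tested. With arrays centred on their median the difference of Gsr was -0.20 (adjusted p = 0.159). Txnrd1 and Gss were lower by 0.81 and 0.72 (adjusted p = 0.024 and 0.0485), and both calls were fragile. That of Txnrd1 was lost without chimeric control 2 or 4 or SD control 1 or 3, and that of Gss without chimeric control 2, 4 or 6 or any 1 of the 4 SD controls. Without the 3 arrays that stand apart the differences were -0.32 for Txnrd1 (adjusted p = 0.0155) and -0.24 for Gss (adjusted p = 0.265).

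Beside the low Hmox1 of chimeric livers, 10 of 11 macrophage markers were lower than in SD livers on control diet, with Cd68 at -1.95 against 2.47 and Marco not well above background on any chimeric array. Their summed level was 41.9 to 56.6 in chimeric controls and 96 to 113 in SD controls. On PB diet 11 of 11 were lower, and the sums were 26.3 to 46.8 in chimeric livers and 94.5 to 113 in SD livers. Of 6 erythroid markers, Hbb was not well above background on any chimeric array, while their sum was 253 to 502 in chimeric controls and 367 to 933 in SD controls. Other lists were lower on control diet too: 6 of 7 lymphoid, 2 of 2 neutrophil and 4 of 5 endothelial markers. Of 4 biliary markers 3 were lower and 1 higher, and of 10 stellate and fibroblast markers 6 were lower and 4 higher. Of 10 hepatocyte markers 4 were lower and 1 higher, where 36% of all genes tested were lower and 39% higher. The share of Hmox1 that comes from cells other than hepatocytes was not tested.

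On PB diet 4 of 8 genes tested differed between chimeric and SD livers, where 72.8% of the 15648 genes tested did, 39.3% higher and 33.5% lower. Gclm was not tested, with 1 of 7 chimeric and 0 of 4 SD arrays well above background. With no filter on dim probes the limma fit gave Gclm 1.31 (adjusted p = 0.0316), a size that rests on signals not well above background. Gpx2 was higher by 4.32 ± 0.62 (adjusted p = 6.49e-07), Srxn1 by 1.53 ± 0.21 (adjusted p = 2.31e-07) and Gclc by 0.78 ± 0.19 (adjusted p = 0.000594), and Hmox1 was lower by 1.35 (-1.35 ± 0.32, adjusted p = 0.000461). None of the 4 overlapped between groups, 3 above and 1 below, where 31.2% and 23.3% of all genes tested did likewise. The call of Gclc was lost with quantile normalization (0.19) and with the 75th percentile over probes detected on all arrays (0.31). Gsr stood at -0.02 ± 0.11, but this value depends on the scaling: with arrays centred on their median it was 0.66 (adjusted p = 3.66e-05), and with the 75th percentile taken over probes detected on all arrays it was -0.49 (adjusted p = 0.000913). The median of all genes moved by 0.68 and -0.47 under the same settings. Txnrd1 did not differ by its main probe (-0.04 ± 0.32) and was lower by its second (-0.47 ± 0.13, adjusted p = 0.00235). The difference between the probes was not tested.

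**Figure D3:**
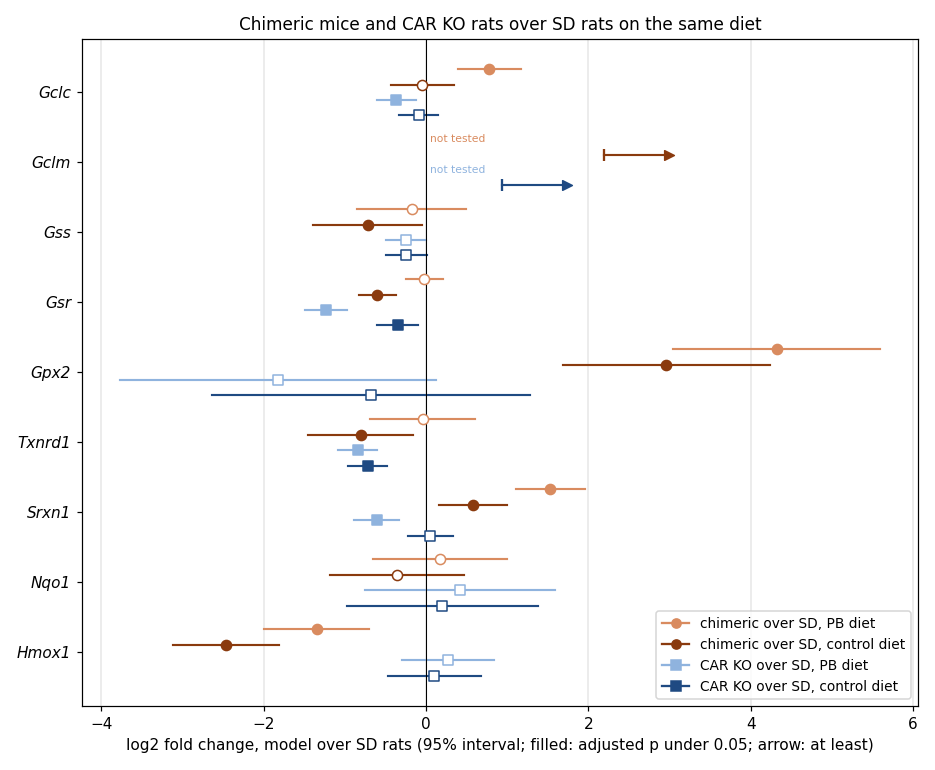
Log2 fold change of chimeric and of CAR KO livers over SD livers on the same diet, with 95% intervals. Filled points passed the test, and an upright tick with an arrow of arbitrary length marks a lower bound where no SD array was well above background. Gpx2 was higher and Hmox1 lower in chimeric livers on both diets, at 4.32 and -1.35 on PB and 2.96 and -2.47 on control diet, and Txnrd1 was lower in CAR KO rats on both.

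By group mean, the order of levels differed from gene to gene. Gclc and Srxn1 were highest in chimeric mice on PB, then in SD rats on PB. With the scaling used for these levels, both steps were free of overlap (mean levels 4.60 and 3.82 for Gclc, 3.55 and 2.02 for Srxn1). The lead of chimeric mice in Gclc depends on that scaling. Its call over SD livers on PB was lost with quantile normalization and with the percentile over probes detected on all arrays, as given above. Gpx2 was highest in chimeric mice on PB (3.46 ± 0.55) and next in chimeric controls (0.24 ± 0.38), whose range overlapped that of SD rats on PB (-0.86 ± 2.42). Gsr averaged 0.20 ± 0.18 in chimeric mice and 0.22 ± 0.24 in SD rats on PB, with the dependence on scaling given above, and every array of either was above all arrays of the other 4 groups. Hmox1 was lowest in the 2 chimeric groups, and Nqo1 and Gss had overlapping ranges between each group and the next.

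Genes whose levels over the 16 rat arrays were most like those of the 3 genes with the lowest adjusted p in SD rats were sought among 10020 named genes tested. Closest to Gsr were Sgpl1 (Pearson r = 0.97), Ugt2b37 (0.97) and Cyp2b21 (0.96), a cytochrome P450 of the family PB induces. Closest to Srxn1 were Alas1 (0.94), the first enzyme of heme synthesis, Akr7a3 (0.93), an aldehyde reductase, and Ephx1 (0.92), microsomal epoxide hydrolase. Closest to Gclc were Arpp19 (0.93), Lamtor1 (0.91) and Fermt2 (0.90). The 16 arrays form 4 groups on 2 slides, which these correlations share.

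Related genes were read from 5 lists. They were chosen with earlier results of these data known, so counts beside the share of all genes describe the lists and test nothing. In SD rats, 14 of 23 tested genes of the list of other NRF2-responsive genes rose and none fell (median 0.39), where 2.51% of all genes tested rose and 1.77% fell, led by Abcc3, an export pump of conjugates, by Ephx1 (2.01 ± 0.16) and by Gsta4, a glutathione transferase (0.86 ± 0.08). Abcc3 was not well above background on any SD control array and averaged -1.68 on PB. Several genes of that list are also known targets of CAR. Of 22 other glutathione enzymes and carriers, Slc3a2 (0.57 ± 0.08), the partner subunit of Slc7a11, and Esd (0.28 ± 0.06) rose, and Chac2 (-0.40 ± 0.10), which degrades glutathione, fell. Txn1, thioredoxin, rose by 0.33 ± 0.06 as 1 of 16 of its list, and 0 of 9 NRF2 control genes and 0 of 4 genes of superoxide and hydrogen peroxide removal passed the test. In CAR KO rats no gene of the 5 lists passed it, where 0.155% of the 17410 genes tested did. The list of other NRF2-responsive genes had a median of 0.15 there. Responses that were lower in CAR KO than in SD rats were found for 4 of 23 other NRF2-responsive genes, of which Abcc3, Gsta4 (-0.76 ± 0.11) and Ephx1 (-1.44 ± 0.23) had the lowest adjusted p, and the response of Gpx1, the main peroxidase of liver, was higher (0.59 ± 0.12). Of all genes tested 0.431% had a lower and 0.113% a higher response there.

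In chimeric mice 14 of 22 other NRF2-responsive genes rose and none fell (median 0.997), where 19.6% of all genes tested rose and 23.2% fell, among them Akr7a3 (3.04 ± 0.20), Pir (1.85 ± 0.13) and Ephx1 (3.12 ± 0.27). Of the thioredoxin and peroxiredoxin list 9 of 15 rose, with Txn1 (0.71 ± 0.12), Prdx6 (0.55 ± 0.10) and Txnl1 (0.61 ± 0.13) lowest in adjusted p, and Txnip, an inhibitor of thioredoxin, fell by 1.96 on the log2 scale, with 4 of 7 PB arrays well above background. Of other glutathione enzymes and carriers 7 of 18 rose, led by Slc3a2 (1.65 ± 0.40), Esd (0.46 ± 0.11) and Gpx4 (0.45 ± 0.13), which removes lipid peroxides. Of NRF2 control genes 4 of 9 rose, with Nfe2l1 (1.003 ± 0.11), Rbx1 (0.88 ± 0.11) and Sqstm1 (1.05 ± 0.24) first, and Sod2 of mitochondria (0.94 ± 0.15) rose as 1 of 4. The transcript of NRF2 itself, Nfe2l2, differed by 0.51 ± 0.22 in chimeric mice (adjusted p = 0.0765), 0.30 ± 0.09 in CAR KO rats (adjusted p = 0.146) and 0.04 ± 0.09 in SD rats (adjusted p = 0.864). These counts in chimeric mice carry the same link between diet and slide as those of the 10 genes.

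**Figure D4:**
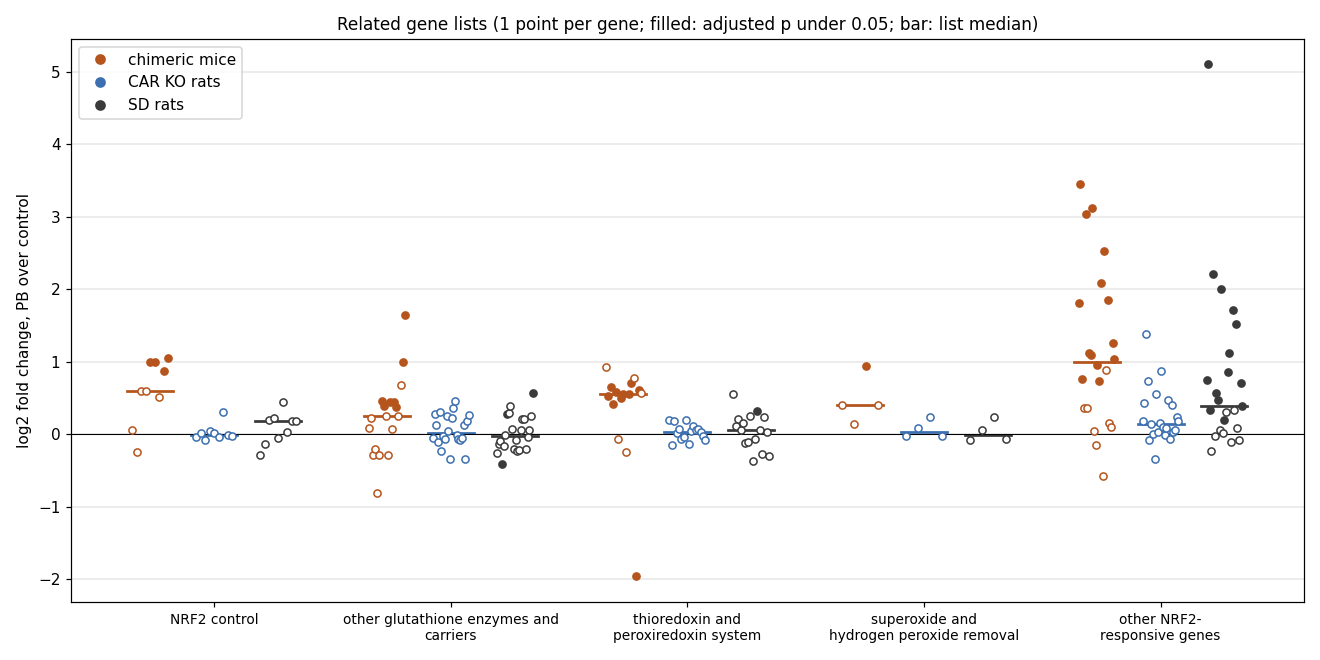
Log2 fold change of PB over control diet for each tested gene of 5 related lists in chimeric mice, CAR KO rats and SD rats; filled points passed the test and bars are list medians. The list of other NRF2-responsive genes had medians of 0.997, 0.15 and 0.39 in the 3 models.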

How the data were processed

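RNA from livers held in RNAlater was labelled with 1 dye, Cy3, per the labels' protocols. Each array had 62976 spots of rat design 028279, and Agilent Feature Extraction 10.7.3.1 read it, per the file headers. Per the file headers, the deposited intensity is a processed signal from which that software had subtracted background, without any scaling across arrays. The authors' deposited series matrix holds log2 values. Its columns had a correlation of 1 with log2 processed signal and column medians from -4.20 to -3.36, and it served as an alternative. Its exact centring is not known.

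The 4259 control spots and spots with outlier flags were left out, log2 spots were averaged per probe, and each array's 75th percentile was subtracted. Probes were named by transcript accession through a table of RefSeq genes (GRCr8, names only), with 18004 of 30367 matched. Each gene was read from 1 probe, the brightest on average in the 16 rat livers. Genes well above background on at least 75% of the arrays of 1 group compared were tested with limma 3.58.1 in R 4.3.3 (lmFit, eBayes), 1 coefficient per group, Benjamini-Hochberg adjustment and a threshold of 0.05. Fits held the 16 rat arrays, the 14 chimeric arrays, or all 30 for chimeric against SD. "At least" folds set the dim group, per array, to the higher of its own signal and the lowest signal well above background. The fit was tested on simulated data in which a gene had the same spread in every group, with neither slide effects nor arrays that stand apart. That test says nothing about those limits. The normexp alternative used the median spot signal, its local background and an offset of 50.

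Groups and replicate numbers came from the sample titles. The 10 genes, the related lists and the markers were chosen with earlier results of these data known. The text names all 10 genes, the 3 genes with the lowest adjusted p per direction of each related list described, the checks Nr1i3 and Cyp2b2, and the 3 genes most correlated with each of 3 of the 10. Marker lists were of hepatocytes, macrophages, erythroid, endothelial, stellate, biliary, lymphoid cells and neutrophils. The number of arrays limits the precision. Alternatives were other background corrections, scalings, filters, blocks, probe rules, fits and leaving out each array.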

Additional observations from a re-analysis of the deposited data

Results flagged for a closer look

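In 6 of the 52 groups of 4 or 7 arrays that were examined, the highest or lowest array stood apart from the rest of its group by Dixon's 95% criterion, which chance meets in about 1 in 20 groups. In chimeric mice on PB, Gclm was at -1.86 on PB 1, against -6.24 to -5.49 on the others, and PB 1 was also the array on the slide of the controls. Srxn1 was at 4.83 and Txnrd1 at -1.32 on chimeric PB 4, against 3.20 to 3.58 and -0.23 to 0.42 on the others, and PB 4 was one of the 3 arrays that stood apart over all probes. In CAR KO rats on PB, Gsr was at -0.82 on PB 2, against -1.09 to -1.07, and Gclc at 3.41 on PB 3, against 3.47 on the other 3. Gpx2 was at -2.67 on CAR KO control 3, against -3.67 to -3.61 on the other 3.

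The PB response differed between models by the test of the difference itself for Gsr in CAR KO against SD rats (-0.88 on the log2 scale). In chimeric mice against SD rats it differed for Gsr (0.58), Gclc (0.83) and Srxn1 (0.95). Gclm passed the same test (-2.49), but with 0 of 8 SD arrays and 1 of 7 chimeric arrays on PB well above background, that value is no measured difference of responses. These 4 share the slide difference between the chimeric diets, and its part in them was not tested beyond the fit with slide as a block.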

How the results depend on the processing

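Counts of the 10 genes (members of the set) past the test kept within 1.5 times under most settings. The exceptions were as follows. For the CAR KO minus SD response the count was 0 with median centring and with no filter on dim probes, against 1. With all 30 arrays in 1 fit it was 1 for CAR KO against SD rats on either diet, against 4 on PB and 3 on control diet. With slide as a block it was 2 for PB in chimeric mice, against 8, and 0 for the chimeric minus SD response, against 4. For that difference of responses it was 2 with normexp, with quantile normalization and with only the groups compared in the fit. For chimeric against SD livers on control diet it was 4 with median centring, against 7. Leaving out 1 array gave 2 to 3 members for PB in SD rats, 0 to 0 in CAR KO rats, 0 to 1 for their difference, 2 to 3 and 3 to 5 for CAR KO against SD rats on control and PB diet, 7 to 8 for PB in chimeric mice, 4 to 7 and 4 to 4 for chimeric against SD livers on control and PB diet, and 3 to 5 for the chimeric minus SD response. Values that turned were Gclm, itself near background, with slide as a block (1.22 for PB in chimeric mice, 1.01 for the chimeric minus SD response) and Gsr in chimeric against SD livers on PB with median centring (0.66). Apart from the change of scale or of arrays itself, the cause was not tested.

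Over all genes, calls ranged from 181 (all 30 arrays in 1 fit) to 3629 (no filter) for PB in SD rats, against 719, and from 0 (only the groups compared) to 1814 (no filter) in CAR KO rats, against 27. For PB in chimeric mice 156 were called with slide as a block, against 6102, and 32 for the chimeric minus SD response, against 3247. The CAR KO minus SD response had 39 to 113 calls, against 96. CAR KO against SD rats had 2134 and 2911 on control and PB diet with all 30 arrays in 1 fit, against 6118 and 7011.

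Replicate numbers did not pair the rat arrays: same-numbered arrays on PB and control diet deviated together with r from -0.13 to 0.07 in SD rats and -0.28 to 0.15 in CAR KO rats. In chimeric mice r ran from -0.22 to 0.83 and was over 0.1 in 4 of 7 pairs. It was highest for number 4, whose arrays on both diets stood apart from the rest. With the replicate number as a block, 3 members passed for PB in SD rats, 0 in CAR KO rats and 9 in chimeric mice, where Gss (0.77, adjusted p = 0.0277) was the addition. Signal near background limits Gclm and Slc7a11, and in rats diet and slide row cannot be told apart.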
